A study of Mus musculus with 40 samples.

Results

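The miR-379/410 cluster is a run of microRNA (miRNA) hairpins in the imprinted Dlk1-Dio3 domain, and 40 of its mature miRNAs were described here across 4 mouse tissues. The members were taken by name from the deposited miRNA table. All 40 had counts, of 1894 entries in the table and 1613 entries with a count in any library. The study gave 4-thiouracil to male UCP1;UPRT mice aged 8 to 12 weeks, in 4 intraperitoneal injections of 50 mg/kg spaced 48 h apart. These mice carry a Ucp1-cre transgene and a CAG-GFP,-Uprt transgene; UPRT is the enzyme that lets a cell build 4-thiouracil into its RNA, and Ucp1-cre is meant to direct that labelling to brown fat. Small RNA of hypothalamus, gastrocnemius muscle, liver and brown fat was sequenced before (input) and after (IP) biotinylation of thiol-labelled RNA and streptavidin pull-down, with 5 libraries in each of the 8 groups from 10 mice. Every group came from mice with both transgenes and the label, so the pull-down from unlabelled tissue was not measured here.

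In mammals the genes of this domain are expressed from 1 parental chromosome only, and the miR-379/410 hairpins come from the maternal one, within a long chain of non-coding RNAs that includes Meg3, Rian and Mirg. Each hairpin is processed into a 5p and a 3p arm, either or both of which enter an Argonaute protein and repress mRNAs that pair with the seed, the bases 2 to 8 of the miRNA. The cluster is known for its expression in neurons, where mmu-miR-134-5p limits the size of dendritic spines, and for its activity in the embryo and placenta.

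In the mouse genome (GRCm38, the assembly that mm10 also names) the 31 hairpins with a member lie on the plus strand of chr12:109709060-109743795, a stretch of 34736 bases. By GENCODE M21, 19 hairpins, from Mir379 at the 5′ end through Mir539, lie outside the gene Mirg. The other 12, from Mir382 to Mir410, lie in Mirg, 8 in exons and 4 in introns. RefSeq (GRCm38.p6) gave the mature sequence of 37 members, 19 to 25 bases long, with 36 different seeds. mmu-miR-376c-3p, mmu-miR-487b-3p and mmu-miR-485-5p are named without a sequence. The sequences below are those on which the results turn, 5′ to 3′, with the seed in capitals. The first 5 belong to members that were higher in the pull-down than in the input of at least 1 tissue:
mmu-miR-382-5p: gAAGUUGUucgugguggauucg
mmu-miR-541-5p: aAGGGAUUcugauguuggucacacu
mmu-miR-485-3p: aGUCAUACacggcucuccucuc
mmu-miR-668-3p: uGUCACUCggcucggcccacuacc
mmu-miR-323-3p: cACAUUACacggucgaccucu

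The next set holds members that were lower in the pull-down, among them the near-identical pair mmu-miR-300-3p and mmu-miR-381-3p (3 edits apart), and the pair mmu-miR-379-3p and mmu-miR-411-3p (2 edits apart), the only members that share a seed. mmu-miR-379-5p is printed beside mmu-miR-411-5p because their seeds differ in the first base only, while the size of their change in the pull-down was not the same:
mmu-miR-381-3p: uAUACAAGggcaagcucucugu
mmu-miR-300-3p: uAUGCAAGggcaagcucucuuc
mmu-miR-411-5p: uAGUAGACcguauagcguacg
mmu-miR-379-5p: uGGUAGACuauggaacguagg
mmu-miR-379-3p: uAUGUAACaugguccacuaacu
mmu-miR-411-3p: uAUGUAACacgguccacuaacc
mmu-miR-380-5p: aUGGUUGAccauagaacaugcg
mmu-miR-380-3p: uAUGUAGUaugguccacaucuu
mmu-miR-376a-3p: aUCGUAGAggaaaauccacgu

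Depth set what could be seen. Levels are given as CPM, counts scaled to a library total of 1000000 miRNA counts. Input libraries held 152980 to 5562423 counts and IP libraries 11913 to 921277. The median number of members with a count was 39 in brown fat, 32 in liver, 39 in muscle and 40 in hypothalamus inputs, against 13, 7, 10 and 29 in the IPs. Pool 1 held the inputs and pool 2 the IPs, and a difference between pools cannot be told apart from the pull-down. Tissue markers fitted the labels, with mmu-miR-122-5p at 371900 to 432600 CPM in liver inputs and mmu-miR-1a-3p at 598000 to 633800 CPM in muscle inputs. In hypothalamus inputs 1 to 5 neuronal mmu-miR-9-5p was at 132100, 132900, 113000, 29950 and 45340 CPM. Neuronal mmu-miR-124-3p was at 4739, 5069, 14380, 2471 and 1534 CPM, so inputs 4 and 5 were the lowest for both. Hypothalamus input 4 stood apart. It was the shallowest input (152980 counts) and held muscle mmu-miR-1a-3p at 179100 CPM and liver mmu-miR-122-5p at 17090 CPM, against 1468 to 2475 and 102.8 to 323.1 CPM in the other hypothalamus inputs. The cluster sum and the tests of levels and arm ratios were repeated without it. The shares of the cluster, the overlaps of libraries, the counts by position and the values on base composition kept it. Brown fat inputs also held mmu-miR-1a-3p, at 63980 to 279900 CPM. In bulk tissue, fewer cells of a type and less RNA per cell cannot be told apart.

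The cluster was far more abundant in hypothalamus than in the other tissues. Summed over the 40 members, hypothalamus inputs held 43740, 51720, 46650, 23250 and 36220 CPM in replicates 1 to 5, a mean of 40320 ± 11070 (SD, n = 5), or 4.03% of all miRNA counts. The sum was 1693 ± 239.8 CPM in brown fat, 901.1 ± 97.96 in liver and 654.9 ± 96.12 in muscle inputs (SD, n = 5 each). The lowest hypothalamus input, replicate 4, was still above the highest of the 15 other inputs, at 1946 CPM. The hypothalamus mean was 23.8 times that of brown fat, 44.8 times that of liver and 61.6 times that of muscle. Without hypothalamus input 4 the mean was 44580 ± 6477 CPM (SD, n = 4). Among the other 3 tissues the 5 brown fat inputs lay above the 5 liver inputs and these above the 5 muscle inputs, but this order depended on how libraries were scaled. CPM divides by a total that a few miRNAs dominate in muscle and liver. TMM scaling assumes that most miRNAs do not differ between libraries. After it the mean sum was 620.2 in brown fat, 907.7 in liver and 1232 in muscle, and 14510 in hypothalamus.

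**Figure D1:**
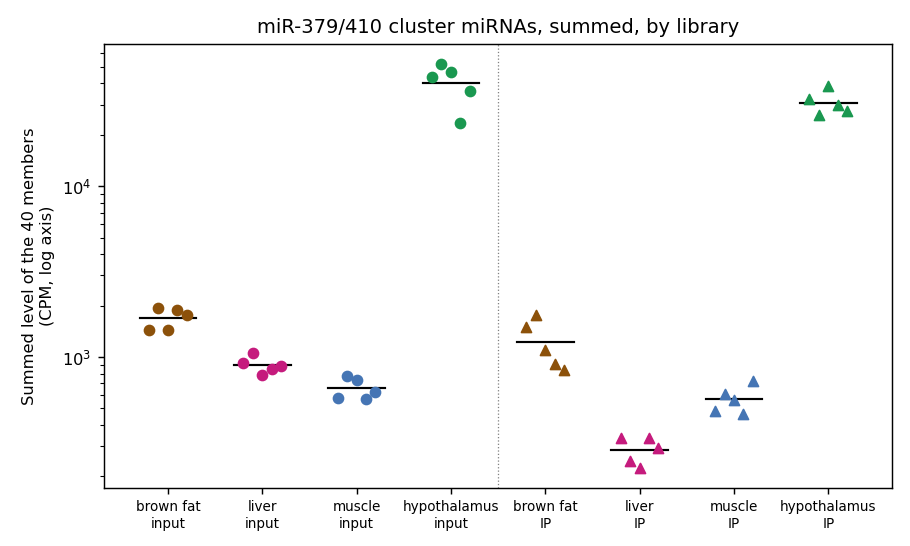
Summed level of the 40 members in each of the 40 libraries, in CPM on a log axis; circles are inputs, triangles are IPs and each line is the mean of 5 libraries. All hypothalamus libraries lie above every library of the other tissues, with hypothalamus input 4 the lowest of its group at 23250 CPM.

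The 8 most abundant members in hypothalamus inputs were mmu-miR-379-5p, mmu-miR-300-3p, mmu-miR-541-5p, mmu-miR-381-3p, mmu-miR-411-5p, mmu-miR-382-5p, mmu-miR-543-3p and mmu-miR-409-3p. mmu-miR-379-5p led the cluster in the inputs of all 4 tissues, with 26.7% of the cluster's counts in brown fat, 26.3% in liver, 33.7% in muscle and 18.5% in hypothalamus. In hypothalamus inputs it measured 8809, 10010, 6348, 3844 and 8188 CPM. In brown fat inputs it measured 346.3 to 533.6 CPM, in liver 162.8 to 285.4 and in muscle 160.2 to 295.1. Hypothalamus did not overlap any other tissue, while liver and muscle overlapped. The next members differed more by tissue: mmu-miR-300-3p held 18.1% of the cluster in hypothalamus and 6.93% in muscle, while mmu-miR-411-5p held 7.33% in hypothalamus and 20.1% in muscle.

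mmu-miR-300-3p measured 7857, 10090, 9173, 4112 and 5692 CPM in hypothalamus inputs, against 123.5 to 229.6 in brown fat, 81.36 to 108 in liver and 38.29 to 51.73 in muscle. Its near-identical relative mmu-miR-381-3p measured 4535, 5513, 4387, 3706 and 5235 CPM, against 95.67 to 208.9, 62.72 to 109.5 and 31.43 to 49.33. For both, all hypothalamus inputs lay above all others. On the CPM scale brown fat lay above liver for mmu-miR-300-3p and overlapped it for mmu-miR-381-3p. mmu-miR-541-5p measured 5462, 6703, 4276, 2876 and 4332 CPM in hypothalamus, 151.2 to 258 in brown fat, 115.4 to 192.9 in liver and 54.58 to 77.68 in muscle. mmu-miR-411-5p measured 2824, 3549, 3414, 1883 and 2863 CPM in hypothalamus, 163.1 to 309.2 in brown fat, 59.79 to 84.07 in liver and 107.8 to 158.4 in muscle. On the CPM scale muscle lay above liver without overlap for mmu-miR-411-5p, the reverse of mmu-miR-541-5p, whose muscle inputs all lay below its liver inputs. With TMM the muscle minus liver difference of mmu-miR-541-5p was -0.23 ± 0.25 on the log2 scale (SE, edgeR adjusted p = 0.43). mmu-miR-382-5p measured 2515, 3003, 2380, 777.9 and 1347 CPM in hypothalamus and 15.23 to 51.61 in the other inputs. Replicate 4 was the lowest hypothalamus input for each of these 5 members.

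mmu-miR-543-3p and mmu-miR-409-3p completed the 8. In hypothalamus inputs mmu-miR-543-3p measured 1631, 1034, 2464, 843.2 and 1287 CPM, and mmu-miR-409-3p 1406, 1722, 1268, 601.4 and 930.2 CPM. mmu-miR-543-3p was at 31.1 to 46.92 CPM in brown fat, 28.42 to 41.44 in liver and 8.04 to 9.866 in muscle. mmu-miR-409-3p was at 30.39 to 52.71, 38.23 to 55.75 and 6.982 to 10.48 CPM. For both, brown fat and liver overlapped and muscle lay below them on the CPM scale. mmu-miR-134-5p, the dendritic-spine regulator, measured 594.8 to 1433 CPM in hypothalamus and 8.463 to 75.48 CPM in the other inputs. At the low end, mmu-miR-539-5p had 0 counts in the liver inputs and mmu-miR-667-3p had 1.

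**Figure D2:**
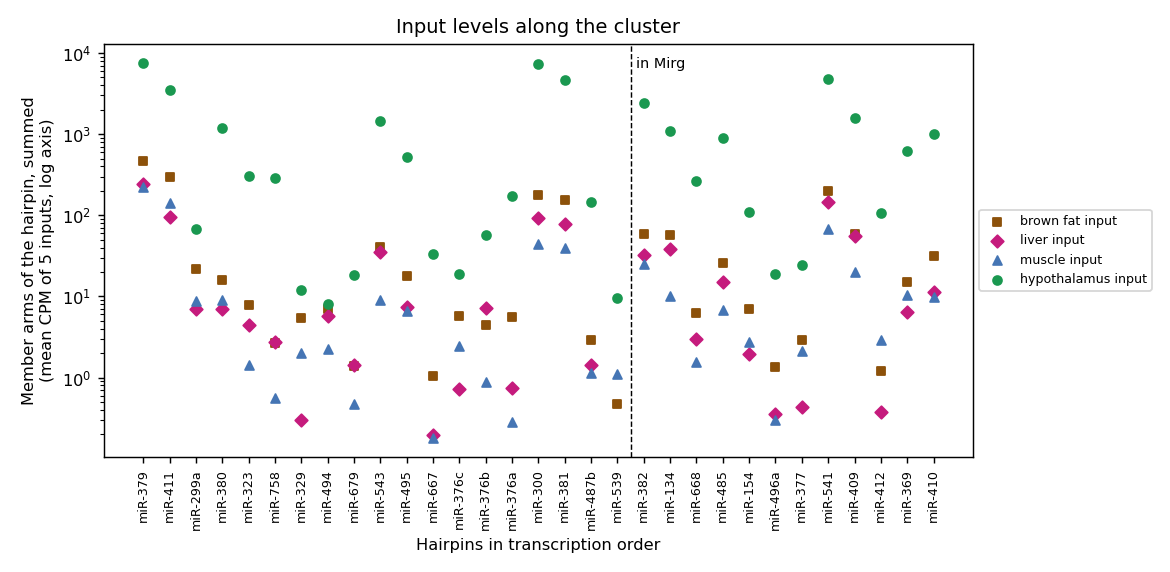
Mean CPM of 5 inputs on a log axis for each hairpin (member arms summed), in transcription order, by tissue; values of 0 are not drawn and the dashed line marks where hairpins begin to lie in Mirg. The hypothalamus mean is the highest at each hairpin, by little for miR-494, and abundant hairpins such as miR-379, miR-300, miR-381 and miR-541 lie in both stretches.

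Of the 40 members, 36 had all 5 hypothalamus inputs above all 15 other inputs, against 16.7% of the 1261 entries with a count after rounding. The 4 exceptions were mmu-miR-299a-5p, mmu-miR-329-3p, mmu-miR-494-3p and mmu-miR-376c-3p. In edgeR's quasi-likelihood test with Benjamini-Hochberg adjustment over all 444 miRNAs tested (adjusted p under 0.05), 36 members passed the filter on low counts. Of these, 35 were higher in hypothalamus than in brown fat and 0 lower, where 48.9% of all tested miRNAs were higher and 35.1% lower. Against liver 35 were higher and 1 lower, with 48.9% of all tested higher and 32% lower. Against muscle 34 were higher and 0 lower, with 52.0% of all tested higher and 31.1% lower. The members' median log2 difference was 4.36, 3.99 and 3.86, beside 0.62, 0.90 and 0.83 over all miRNAs tested. Without hypothalamus input 4 the counts higher were 36, 36 and 34. The 4 members that the filter removed were mmu-miR-299a-5p, mmu-miR-329-3p, mmu-miR-679-5p and mmu-miR-539-5p. The filter asks for enough counts in as many inputs as 1 tissue has. A miRNA seen mainly in hypothalamus could thus pass through that tissue alone, so the counts higher are partly set by the filter.

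The largest differences belonged to members of middling level. mmu-miR-758-3p measured 104.6 to 471.5 CPM in hypothalamus and 1.559 to 4.128 in brown fat inputs, a log2 difference of 6.25 ± 0.36 (SE; edgeR adjusted p = 1.2e-12). Against muscle mmu-miR-380-3p led at 6.46 ± 0.40, followed by mmu-miR-376a-3p at 6.37 ± 0.64, on 6 counts over the muscle inputs, and mmu-miR-758-3p at 6.29 ± 0.37. mmu-miR-380-3p measured 179.6 to 1346 CPM in hypothalamus and at most 8.56 CPM in any other input. mmu-miR-412-5p differed by 5.81 ± 0.43 from brown fat and 6.10 ± 0.56 from liver, but by 2.53 ± 0.34 from muscle. mmu-miR-300-3p differed by 4.98 ± 0.17, 4.63 ± 0.17 and 4.79 ± 0.17 from brown fat, liver and muscle. The exception was mmu-miR-494-3p, at 3.345 to 13.07 CPM in hypothalamus and 2.368 to 8.85 in liver. Its groups overlapped, and its call as lower than liver (-1.16 ± 0.48, edgeR adjusted p = 0.032) turned to a log2 difference of 0.36 under total count scaling.

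Brown fat, liver and muscle differed less, and in a direction that the scaling decided. With TMM scaling 1 member was higher and 7 lower in brown fat than in liver (26.4% and 19.6% of all tested). Against muscle 2 were higher and 11 lower in brown fat (22.7% and 17.3%). In muscle against liver 12 were higher and 6 lower (27.3% and 27.5%). With total counts in place of TMM, the same contrasts gave 20 higher and 0 lower, 30 higher and 1 lower, and 5 higher and 14 lower. Over all miRNAs tested, the median moved from 0.16 to 1.41, from 0.16 to 2.25 and from -0.23 to -1.03. No direction is therefore given for the cluster among these 3 tissues. With TMM, mmu-miR-411-5p was higher in muscle than in liver (1.80 ± 0.19, edgeR adjusted p = 1.3e-07), and mmu-miR-409-3p lower (-1.64 ± 0.24, edgeR adjusted p = 9.7e-06). The members' median was 0.11. These p-values compare the tissues under that scaling, and no member was tested against the others. mmu-miR-412-5p (3.56 ± 0.65) and mmu-miR-377-3p (3.02 ± 0.66) were the highest in muscle against liver, with 2 counts each over the 5 liver inputs.

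A ratio of 2 members within a library does not depend on scaling. The ratio of mmu-miR-541-5p to mmu-miR-411-5p, chosen after its values were seen and given as a description, was 0.434 to 0.555 in muscle inputs, 0.606 to 1.142 in brown fat, 1.253 to 1.934 in hypothalamus and 1.857 to 2.295 in liver. Muscle inputs did not overlap brown fat, nor brown fat hypothalamus, while hypothalamus and liver overlapped. In the IPs the ratio was 13 to 50.25 in brown fat, 20.5 to 170 in muscle and 94.63 to 289 in hypothalamus. In 4 of 5 liver IPs mmu-miR-411-5p had 0 counts. Every brown fat, muscle and hypothalamus IP therefore had a higher ratio than every input of any tissue.

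**Figure D3:**
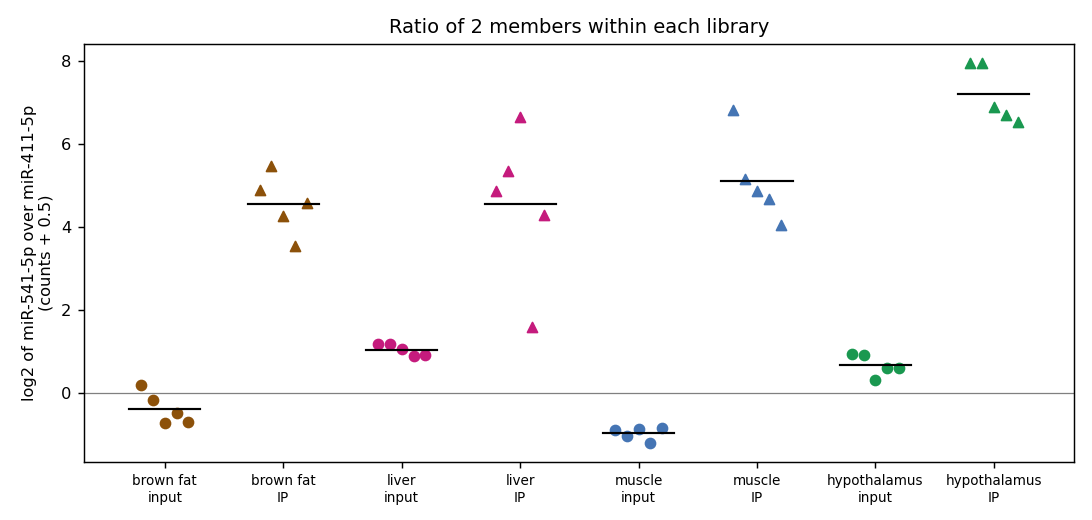
log2 ratio of mmu-miR-541-5p to mmu-miR-411-5p in each library (0.5 added to each count), by tissue for inputs (circles) and IPs (triangles), with the mean of 5 libraries as a line. All IPs lie above all inputs; the lowest IP, liver replicate 4, rests on 1 count of mmu-miR-541-5p and 0 of mmu-miR-411-5p.

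The pull-down changed which members dominated the cluster. In the IPs mmu-miR-541-5p led in brown fat, liver and muscle, with 36.7%, 40.8% and 40.5% of the cluster's counts, and mmu-miR-382-5p led in hypothalamus with 35.0%. Both were above their share of the inputs in each tissue: mmu-miR-541-5p held 10.3% to 16.0% and mmu-miR-382-5p 2.28% to 4.75% there. mmu-miR-300-3p and mmu-miR-381-3p, together a large part of the inputs, held at most 0.656% each in any IP group. The sum over all members was 1223 ± 397.3 CPM in brown fat, 287.2 ± 50.89 in liver, 567.1 ± 107.1 in muscle and 30840 ± 4814 in hypothalamus IPs (SD, n = 5 each). In the liver IPs mmu-miR-122-5p alone took 720600 to 819800 CPM, and its part in the low liver sum was not tested.

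Counts of members called in the pull-down followed the background. In brown fat 15 members were tested, 5 higher and 8 lower in the IP (36.7% and 43.3% of all tested). In liver it was 3 and 4 of 9 (28.5% and 46.0%), and in muscle 3 and 9 of 15 (28.7% and 56.3%). In hypothalamus it was 6 and 15 of 28 (28.2% and 47.3%). The shares are near those of all miRNAs tested, and the members tested are those with enough counts, so the counts say little about the cluster as a set. The members' median log2 change was -1.74, -0.28, -2.23 and -1.47, beside -0.34, -0.78, -1.41 and -1.04 over all tested. With members at 0 counts in the IP set to their bound, the muscle median was -1.70 and the others did not move. Single members spread widely: among those with more than 3 counts over the IPs, log2 changes ran from 3.81 (mmu-miR-382-5p in muscle) to -6.54 (mmu-miR-381-3p in hypothalamus).

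mmu-miR-382-5p had the clearest rise. In hypothalamus it measured 2515, 3003, 2380, 777.9 and 1347 CPM in the inputs and 13800, 10880, 15770, 8231 and 5997 CPM in the IPs, with no overlap. Its log2 change was 3.32 ± 0.40 (SE; edgeR adjusted p = 1.2e-05), on 9471 counts over the IPs. In brown fat it went from 30.85 to 51.61 CPM in the inputs to 159.1, 259, 138.4, 180.5 and 107.2 in the IPs (3.19 ± 0.29, edgeR adjusted p = 3.8e-08). In muscle it went from 15.23 to 25.04 CPM to 127, 172.4, 138.3, 123.1 and 163.7 (3.81 ± 0.39, edgeR adjusted p = 3.4e-09). IPs and inputs did not overlap in either tissue. In liver the groups overlapped, at 16.58 to 29.6 CPM in the inputs and 15.77 to 167.9 in the IPs on 23 counts. The liver call (1.93 ± 0.39) was lost under total count scaling (0.30, edgeR adjusted p = 0.647), a minimum of 10 CPM (0.91, edgeR adjusted p = 0.0645) and DESeq2 (0.96, adjusted p = 0.0674).

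mmu-miR-541-5p rose in the IPs of the same tissues. Hypothalamus IPs measured 9225, 8633, 10290, 9987 and 12240 CPM, all above the inputs' highest value of 6703 (log2 change 1.88 ± 0.32, edgeR adjusted p = 0.00018). Muscle IPs measured 184.5, 220.7, 210.3, 180.4 and 372.9 CPM, all above the inputs' highest value of 77.68 (2.62 ± 0.33, edgeR adjusted p = 1.1e-07). Brown fat IPs measured 564.3, 839.7, 415.3, 247 and 280.8 CPM. The lowest of these lay inside the input range (2.30 ± 0.31, edgeR adjusted p = 2.7e-06). In liver the IPs, at 83.94 to 139.7 CPM, overlapped the inputs at 115.4 to 192.9. The liver call there (1.34 ± 0.36) rested on TMM scaling and turned to -0.28 under total counts. Dropping a single liver input, whichever of the 5 it was, also ended the call, with values of 0.48 (without input 5) to 0.61 (without input 2).

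Both arms of miR-485, whose 5p arm is known to act at synapses, were higher in hypothalamus IPs. mmu-miR-485-5p went from 662.6, 697.3, 550.8, 176.5 and 366 CPM in the inputs to 3938, 2649, 2583, 4661 and 1763 in the IPs, with no overlap (3.46 ± 0.34, edgeR adjusted p = 3.3e-06). In muscle it went from 2.4 to 6.44 CPM to 24.97, 22.07, 34.56, 17.18 and 54.57, again with no overlap (3.48 ± 0.38, edgeR adjusted p = 1.2e-08). mmu-miR-485-3p rose less, by 1.78 ± 0.32 in hypothalamus (edgeR adjusted p = 0.0003) and 1.58 ± 0.29 in brown fat (edgeR adjusted p = 0.0001), and its groups overlapped in both. Under total count scaling both of these calls were lost (0.97 and 0.47). In hypothalamus mmu-miR-668-3p (1.06 ± 0.34) and mmu-miR-323-3p (0.90 ± 0.34) also passed the test, with overlapping groups. Neither passed it under total count scaling (0.31 and 0.05, edgeR adjusted p = 0.573 and 0.925). With total counts 3 members were called higher in hypothalamus IPs, in place of 6.

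mmu-miR-381-3p, the fourth member by level in the hypothalamus inputs, nearly vanished from the IPs. In hypothalamus it fell from 4535, 5513, 4387, 3706 and 5235 CPM to 26.13, 0, 37.1, 59.01 and 38.32, a log2 change of -6.54 ± 0.57 (SE; edgeR adjusted p = 1.6e-06). In brown fat 1 count remained over 5 IPs against 1081 in the inputs, a ratio of 141 with TMM (exact 95% interval 25.3 to 5580) and 305 with total counts (54.7 to 12100). In muscle 0 counts against 829 were at least 15.5-fold lower, and in liver 0 against 356 were at least 7.28-fold lower, taking 3 counts over the group as the floor. With total counts these bounds were 32.3 and 24.3. Library reads carried no molecular identifiers that the labels mention, so such intervals and floors cover counting error only. IPs and inputs did not overlap in any tissue.

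mmu-miR-300-3p followed its near-identical relative. It fell from 4112 to 10090 CPM in hypothalamus inputs to 78.4, 49.78, 139.1, 221.3 and 172.4 in the IPs (-5.06 ± 0.39, edgeR adjusted p = 8.6e-07). In brown fat it fell by 4.78 ± 0.49 on the log2 scale (edgeR adjusted p = 1.4e-07), with 6 counts left over the IPs. In muscle 0 counts against 934 were at least 17.5-fold lower, or 36.4-fold with total counts. In liver 2 counts against 428 gave a ratio of 13.1 with TMM (exact 95% interval 3.61 to 109) and 43.8 with total counts (12.1 to 363). How reads that match both mmu-miR-300-3p and mmu-miR-381-3p were assigned is not given in the sources used here.

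mmu-miR-411-5p and mmu-miR-379-5p, with seeds AGUAGAC and GGUAGAC, both fell in hypothalamus and liver IPs, and mmu-miR-411-5p alone of the pair fell in brown fat and muscle. No difference between the pair was tested. mmu-miR-411-5p fell from 1883 to 3549 CPM in hypothalamus inputs to 34.85, 29.87, 83.47, 88.51 and 129.3 in the IPs (-4.53 ± 0.45, edgeR adjusted p = 3.8e-06). It fell by 2.79 ± 0.32 in brown fat (edgeR adjusted p = 4.6e-07) and 3.81 ± 0.39 in muscle (edgeR adjusted p = 3.3e-09). In liver 1 count against 328 gave a ratio of 20.1 with TMM (exact 95% interval 3.59 to 797) and 67.2 with total counts (12 to 2660). mmu-miR-379-5p measured 552, 509.6, 385.6, 327.7 and 312.9 CPM in brown fat IPs, which overlapped the inputs at 346.3 to 533.6. Its change there was 0.98 ± 0.28 with TMM (edgeR adjusted p = 0.0041) and -0.10 with total counts. In hypothalamus it fell from 3844 to 10010 CPM to 1433, 1284, 3214, 870.3 and 1820 (-1.31 ± 0.42, edgeR adjusted p = 0.013), without overlap. That call was lost without hypothalamus input 5 (-0.89). In liver it fell from 162.8 to 285.4 CPM to 36.31, 21.34, 38.29, 0 and 28.89 (-1.25 ± 0.40, edgeR adjusted p = 0.0068), again without overlap. In muscle its change was 0.28 ± 0.40 (edgeR adjusted p = 0.51).

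Other members fell in hypothalamus on fewer counts. mmu-miR-376a-3p had 1158 counts in the inputs and 0 in the IPs, at least 20.2-fold lower with TMM and 33.5-fold with total counts. mmu-miR-380-3p fell by 5.23 ± 0.69 and mmu-miR-380-5p by 4.85 ± 0.53 on the log2 scale (edgeR adjusted p = 2.5e-05 and 6.5e-06), with 6 and 11 counts left. mmu-miR-379-3p and mmu-miR-411-3p, which share the seed AUGUAAC, fell by 2.86 ± 0.67 and 3.15 ± 0.57 (edgeR adjusted p = 0.0019 and 0.00032). mmu-miR-134-5p (-0.36 ± 0.32) and mmu-miR-543-3p (0.01 ± 0.32) did not pass the test. Leaving out hypothalamus input 4 gave 5 members higher and 16 lower, and leaving out input 4 and IP 4 together gave 6 and 19.

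**Figure D4:**
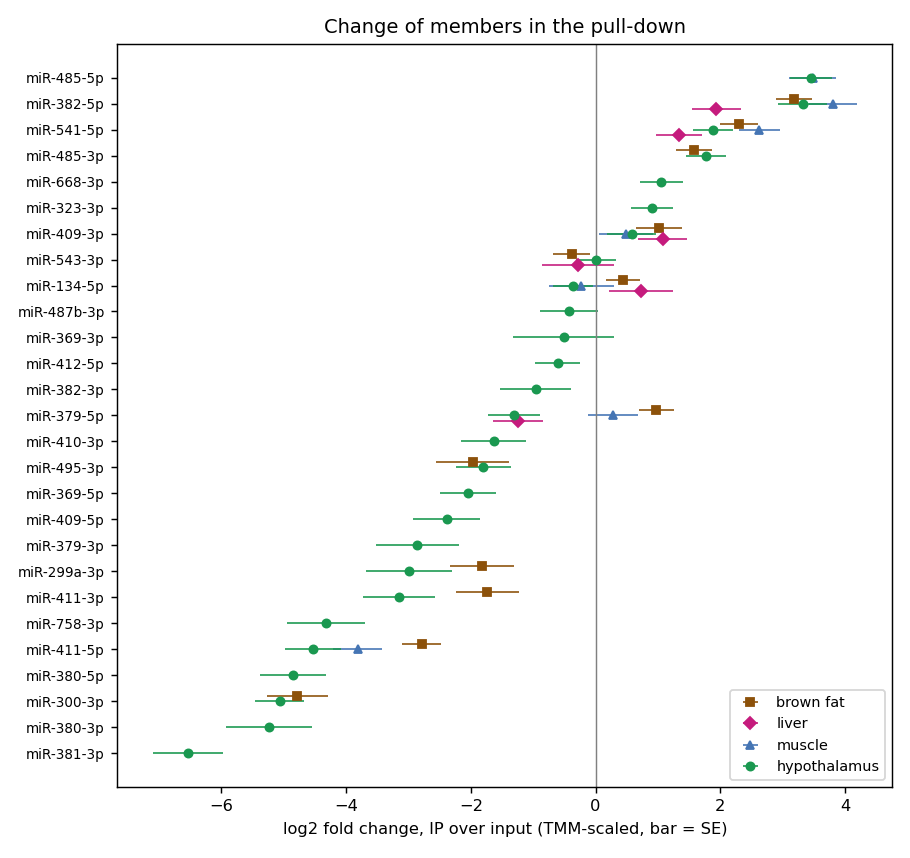
log2 fold change of IP over input with its SE (edgeR, TMM scaling) for members tested in hypothalamus with more than 3 counts over the IPs, ordered by the hypothalamus value; other tissues are shown where tested with more than 3 counts over their IPs. mmu-miR-382-5p and mmu-miR-541-5p lie to the right of 0 in all 4 tissues (for mmu-miR-541-5p in liver, total count scaling gives -0.28), and mmu-miR-381-3p lies farthest left at -6.54.

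Members were also counted by position along the cluster. Of 15 members tested in hypothalamus from hairpins outside Mirg, 1 rose and 12 fell, with a median log2 change of -3.15. Of 13 from hairpins in Mirg, 5 rose and 3 fell, with a median of -0.36. Over all miRNAs tested in hypothalamus 28.2% were higher and 47.3% lower, with a median of -1.04. In brown fat the counts were 1 higher and 6 lower of 8 outside Mirg, against 4 higher and 2 lower of 7 in it. In muscle they were 0 and 7 of 8 against 3 and 2 of 7, and in liver 0 and 4 of 5 against 3 and 0 of 4. The scaling moved the higher calls. With total counts hypothalamus had 0 higher and 13 lower outside Mirg, against 3 (mmu-miR-382-5p, mmu-miR-485-5p and mmu-miR-541-5p) and 6 in it. Brown fat then had 0 and 7 against 2 and 2, muscle 0 and 7 against 3 and 3, and liver 0 and 5 against 0 and 0, so the 3 liver calls in Mirg were lost. Over all miRNAs tested, total counts gave 53 higher and 153 lower of 273 in hypothalamus, and 55 and 174 of 305 in brown fat. In muscle they gave 57 and 161 of 268, and in liver 29 and 135 of 200. The 4 tissues share members and hairpins, and the pattern was noticed in these values, so it is given as counts without a test. Hypothalamus input 4 was kept in the hypothalamus counts.

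Base composition moved with the pull-down too. Among 13 members tested in hypothalamus that begin with U, 1 rose and 9 fell, with a median log2 change of -2.99. Among all 106 tested miRNAs that begin with U, 27 rose and 60 fell, with a median of -1.95. The 10 members that begin with A had a median of -1.71, beside -1.17 over all 69 tested. The 2 that begin with G had a median of 1.95, beside 0.53 over all 22 tested. mmu-miR-485-5p, with the largest rise in hypothalamus (3.46), and mmu-miR-487b-3p (-0.42) have no sequence here and are not in these values. Across all 238 tested miRNAs with a sequence, the percentage of G and C had a Pearson r of 0.43 with the hypothalamus change, and the number of U, the base that 4-thiouracil can replace, an r of -0.05. Across the 26 members with a sequence these values were 0.27 and 0.26. For the number of U, members had an r of 0.40 in brown fat (n = 15), 0.43 in liver (n = 9) and 0.47 in muscle (n = 14). Over all tested miRNAs with a sequence it was -0.01, 0.03 and 0.08. The points of a tissue share the same 10 libraries and sequences are related within families, so the correlations are descriptions. Their part in the changes of single members was not tested. Hypothalamus input 4 was kept in all of the hypothalamus values.

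Both arms of a hairpin come from the same precursor, and their ratio in a library needs no scaling between libraries. In hypothalamus the log2 ratio of 5p to 3p was tested in 11 hairpins of the cluster with limma, over 93 hairpins in all, and it was higher in the IP for 7 and lower for 1 (32.3% and 29% of all tested). For miR-382 the IPs held 3168, 1093, 3400, 558 and 1252 counts of 5p against 5, 10, 75, 6 and 25 of 3p. The inputs held 3336, 3591, 2943, 119 and 7495 against 578, 387, 559, 59 and 2779. The log2 ratio rose by 4.57 ± 0.71 (limma adjusted p = 0.00019), with no overlap. For miR-485 it rose by 1.72 ± 0.33 (limma adjusted p = 0.00074), with no overlap.

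The miR-410 and miR-323 ratios also rose, by 4.37 ± 0.68 and 4.31 ± 0.66 (limma adjusted p = 0.00019 for each). For miR-410 few 5p counts stood behind it, from 0 to 17 in an IP, while miR-323 had 24 to 144. For miR-541 the rise of 2.53 ± 0.48 came with 0 counts of the 3p arm in every IP, so the ratio there is set by the 0.5 added to each count. The same holds in part for miR-379 (1.71 ± 0.56, limma adjusted p = 0.02). Its 3p arm had 0, 0, 5, 0 and 4 counts in the IPs. The miR-409 ratio fell by 3.12 ± 0.47 (limma adjusted p = 0.00017), the 3p arm being the one retained: the IPs held 2, 2, 16, 2 and 17 counts of 5p against 155, 37, 206, 92 and 364 of 3p. The retained arm was thus 5p in miR-382 and 3p in miR-409.

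**Figure D5:**
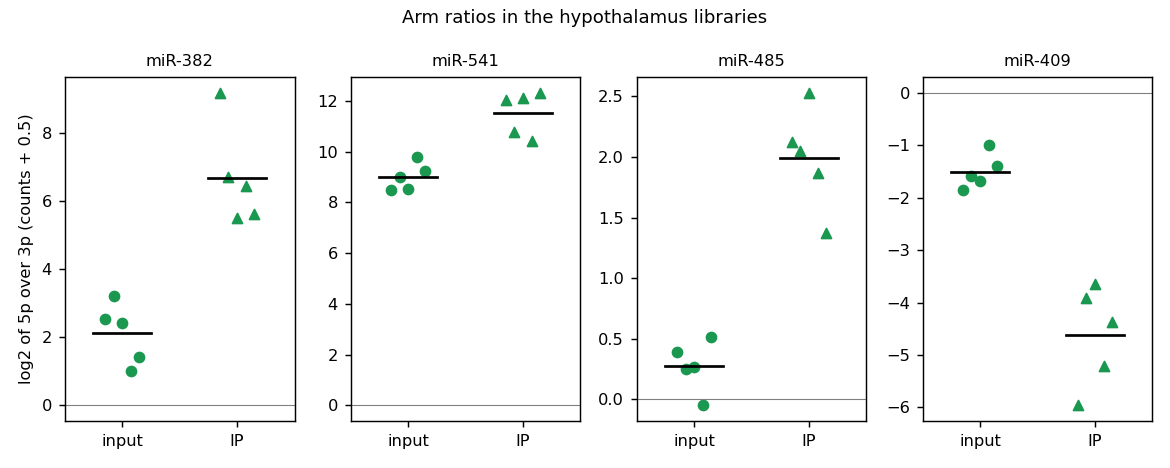
log2 ratio of 5p to 3p counts (0.5 added to each) in hypothalamus inputs (circles) and IPs (triangles) for 4 hairpins, each with its own vertical scale; lines are means of 5 libraries. The IPs lie above the inputs for miR-382, miR-541 and miR-485 and below them for miR-409.

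Between input tissues, arm ratios were compared in the same way. Against brown fat, 2 hairpins of the cluster had a higher ratio in hypothalamus and 3 a lower one (8.75% and 10.6% of all tested). Against muscle, 3 were higher and 8 lower (7.05% and 15.4%). For miR-495 the 5p arm had 0 or 1 counts in each of these inputs, so its difference of -4.19 ± 0.80 from brown fat follows the depth of the 3p arm and is no change of arm. The other lower calls against brown fat, miR-543 and miR-381, rested on brown fat means of -6.804 and -7.925, with few or no 5p counts. In muscle the same held for miR-543, miR-381 and miR-300. These ratios are largely set by the 0.5 added to each count, and no change of arm is read from them. Where both arms were counted, the miR-409 ratio in muscle was above that in hypothalamus. Muscle inputs held 42, 45, 56, 56 and 46 counts of 5p against 32, 41, 34, 33 and 35 of 3p, and in every hypothalamus input 3p exceeded 5p (log2 difference -1.98 ± 0.25, limma adjusted p = 0.00026). The miR-329 ratio was higher in hypothalamus than in brown fat by 3.65 ± 0.54 (limma adjusted p = 0.0013) and than in muscle by 4.05 ± 0.55 (limma adjusted p = 0.00034). The 3p arm of miR-329 had 0 counts in hypothalamus input 4, without which these values were 3.34 and 3.74. With the mouse as a block both calls against muscle were lost, at -1.84 ± 0.30 for miR-409 and 4.11 ± 0.79 for miR-329 (limma adjusted p = 0.065 for each), while the miR-329 call against brown fat held (3.81 ± 0.64, limma adjusted p = 0.016). mmu-miR-299a-3p and the antisense entry mmu-miR-299b-5p held the same values, so their hairpins cannot be told apart, and both were counted among the hairpins against muscle.

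Whether the pull-down change differed between tissues was tested as an interaction, and the answer did not hold across settings. With TMM, 0 of 33 members had a higher change in brown fat than in hypothalamus and 17 a lower one (2.13% and 32.2% of all tested). For muscle it was 0 and 7 of 36 (0.245% and 13.5%). Total count scaling gave 1 higher and 0 lower for brown fat and 0 lower for muscle. Leaving out hypothalamus input 4 and IP 4 together gave 6 higher and 0 lower for brown fat, and 2 lower for muscle. With 1 library left out, the median over all miRNAs tested ranged from -1.38 to 1.91 for brown fat, with -1.30 for all libraries. mmu-miR-382-5p, for example, had a difference of -1.95 ± 0.52 between brown fat and hypothalamus (edgeR adjusted p = 0.0077), which ranged from -2.09 to 1.62 with 1 library left out. No difference between tissues is therefore given for any member.

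The rest of the domain gave a comparison for the tissue pattern. The upstream miRNAs of the domain were listed as 36 entries, of which 26 were tested: 26 were higher in hypothalamus than in brown fat, 26 than in liver and 25 than in muscle. Arms of the cluster that are not members were listed as 35 entries, and all 7 that were tested were higher in each contrast. Entries seen mainly in hypothalamus could pass the filter on low counts through that tissue alone. The counts of both lists are therefore partly set by the filter and are given as a description. Of all miRNAs tested, 48.9%, 48.9% and 52.0% were higher in hypothalamus than in brown fat, liver and muscle. mmu-miR-127-3p, an upstream miRNA that lies opposite the retrotransposon-derived gene Rtl1, measured 88150 ± 31490 CPM in hypothalamus inputs (SD, n = 5), above the 40 members together. In the pull-down it fell by 2.04 ± 0.47 on the log2 scale in hypothalamus (edgeR adjusted p = 0.0018). mmu-miR-434-3p, from the same stretch, measured 3960 ± 1547 CPM in the inputs, and its change of -0.53 ± 0.32 did not pass the test (edgeR adjusted p = 0.15). In hypothalamus IPs 6 of the 20 tested upstream entries were higher and 10 lower, beside 6 and 15 of 28 members. Over all miRNAs tested there 28.2% were higher and 47.3% lower, so these counts say little about either set.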

How the data were processed

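Small RNA from 40 libraries was used, 5 in each of 8 groups set by the labelled tissue and type. Per the labels, libraries were made with the NEBNext small RNA kit; per the submitters' processing notes, fastp, STAR, featureCounts and mm10 were used, with versions, strand and multi-mapping settings not given in the sources used here. The authors made and deposited 1 table of expected counts (estimated counts that need not be whole) per miRNA: 18.9% of values above 0 were whole within 0.001. Values were rounded, which moved a library total by at most 0.127%. CPM is the rounded count scaled to a library total of 1000000 miRNA counts.

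Tests used edgeR 4.0.16 (filterByExpr, TMM, quasi-likelihood, R 4.3.3), tissue contrasts in 1 fit of 20 inputs, IP against input per tissue, and interactions over 20 libraries; arm ratios used limma 3.58.1 with 0.5 added and a median of at least 20 counts per group. p-values were adjusted over all features tested. Scripts were tested on simulated data. Alternatives were RLE and total count scaling, no filter, 10 CPM, DESeq2 1.42.0, all 40 libraries, the mouse as a block, pseudocount 1, 50 counts, and leaving libraries out. Leaving out hypothalamus input 4 and IP 4 together was chosen after seeing the data. The members and lists were chosen with earlier results of these data known, and list positions were corrected to the reference.

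Members named with values in every library are the 8 highest in hypothalamus inputs; others are up to 4 per direction with the largest called change per comparison, or were chosen after their values were seen (miR-134-5p, miR-379-3p, miR-411-3p, miR-380-5p, miR-485-5p, miR-668-3p, miR-323-3p and those not tested or not called). Tissues of 1 mouse share its number. The deviations of 19 pairs of input and IP from the same mouse had correlations of -0.126 to 0.511 (median 0.114), 10 of them over 0.1; pairing comes from the labels' mouse identity, and brown fat replicate 5 joins 2 mice. Liver was left out of the interactions for the low depth of its IPs.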

Additional observations from a re-analysis of the deposited data

Results flagged for a closer look

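In 6 of 69 groups of 5 libraries tested, 1 library lay far from the other 4. The limit used flags about 1 in 20 groups of normally distributed values, a rate that does not hold for counts near 0. Where 4 libraries have 0 counts, any count in the other library is flagged. Of these, 5 rest on 1 or 2 counts: miR-300-3p in liver IP 5 (9.631 CPM, 0 in the others), miR-381-3p in brown fat IP 1 (1.224 CPM, 0 in the others), miR-411-5p in liver IP 5 (4.816 CPM, 0 in the others) and in muscle IP 5 (18.19 CPM, next 5.76), and miR-382-5p in liver IP 4 (167.9 CPM, next 33.71), the shallowest library at 11913 counts. The other is miR-541-5p in muscle IP 5, at 372.9 CPM on 41 counts, against 220.7 in the next library.

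The interaction test gave the largest differences in pull-down change between brown fat and hypothalamus for miR-409-5p (-5.50), miR-496a-3p (-5.29), miR-487b-3p (-5.07) and miR-379-3p (-4.70) on the log2 scale. All 4 had 0 counts in the brown fat IPs, so the fitted values are no bounds. Between muscle and hypothalamus they were miR-668-3p (-7.58), miR-410-3p (-7.47), miR-495-3p (-6.76) and miR-412-5p (-6.74), all at 0 counts in the muscle IPs. These calls did not hold across scalings.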

How the results depend on the processing

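The counts of members higher in hypothalamus than in each other tissue were within 1.5 times under every alternative run. Lower calls there were few: 1 against muscle with RLE, DESeq2 and no filter, and 0 against liver with no filter, 10 CPM, all 40 libraries and total counts. Leaving out 1 library gave 0 to 1 lower against each tissue.

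Total count scaling moved brown fat against liver to 20 higher and 0 lower, brown fat against muscle to 30 and 1, and muscle against liver to 5 and 14. Under it the log2 differences turned for brown fat against liver in miR-543-3p (0.19), miR-379-5p (0.92), miR-300-3p (0.94), miR-541-5p (0.44), miR-381-3p (0.99) and miR-382-5p (0.83). Against muscle they turned in miR-380-5p (0.19), miR-369-5p (0.25), miR-377-3p (0.35), miR-379-5p (1.01), miR-300-3p (1.98), miR-541-5p (1.55), miR-381-3p (1.96), miR-411-5p (0.97), miR-382-5p (0.92) and miR-543-3p (2.14). For muscle against liver miR-379-5p (-0.093) and miR-382-5p (-0.092) turned, and for hypothalamus against liver miR-494-3p (0.36). For the other settings, brown fat against liver had 2 higher with DESeq2, 0 higher and 4 lower with all 40 libraries, 3 lower with no filter, and 2 higher without hypothalamus input 4 and IP 4. Brown fat against muscle had 0 higher with RLE, DESeq2 and all 40 libraries, and 1 with 10 CPM or no filter. With 1 library left out, brown fat had 1 to 3 higher and 4 to 9 lower against liver, and 0 to 2 higher against muscle. TMM-scaled sums were 620.2 (brown fat), 1232 (muscle) and 14510 (hypothalamus) in inputs, and 675 (liver), 2302 (muscle) and 20990 (hypothalamus) in IPs.

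In the pull-down, total counts gave 2 members higher in brown fat, 0 in liver and 3 in hypothalamus. Under it miR-409-3p (-0.14) and miR-379-5p (-0.10) turned in brown fat, and miR-541-5p (-0.28) and miR-409-3p (-0.59) in liver. Liver had 1 higher with RLE and 0 with DESeq2 and 10 CPM, and 1 to 3 with 1 library left out. The lower counts were 18 (DESeq2), 17 (all 40 libraries) and 21 (no filter) in brown fat, 10 (no filter) in liver, 14 (DESeq2), 3 (10 CPM) and 21 (no filter) in muscle, and 24 (no filter) in hypothalamus. With 1 library left out muscle had 3 to 13 lower.

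Interactions for brown fat gave 1 higher and 4 lower with RLE, 1 and 0 with total counts, 1 and 3 with DESeq2, 2 and 1 with all 40 libraries, 8 lower with no filter, and 6 and 0 without hypothalamus input 4 and IP 4. With 1 library left out they gave 0 to 9 higher and 0 to 16 lower. For muscle, RLE, total counts and all 40 libraries gave 0 lower, DESeq2 3 higher and 0 lower, no filter 3 lower, the omission of both hypothalamus libraries 2 lower, and the omission of 1 library 1 to 7. Brown fat interactions turned for miR-541-5p (0.24 with all 40 libraries, 0.16 with total counts) and miR-411-5p (1.53 with all 40). Without both hypothalamus libraries they turned for miR-541-5p (1.76), miR-411-5p (3.05), miR-382-5p (1.24), miR-543-3p (0.92) and miR-409-3p (1.77). With 1 library left out they ranged from -1.52 to 2.14 (miR-300-3p), -2.09 to 1.62 (miR-382-5p), -1.23 to 2.24 (miR-409-3p), -0.008 to 3.51 (miR-411-5p), -1.40 to 2.21 (miR-541-5p) and -2.32 to 1.25 (miR-543-3p). The cause of these changes was not tested.

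With the mouse as a replicate block, brown fat against liver had 0 higher and 3 lower, brown fat against muscle 1 higher, and the muscle interaction 3 lower. In the same block, arm ratios had 1 higher for hypothalamus against brown fat, and 0 higher and 2 lower against muscle; the other counts stayed within 1.5 times. Arm ratios against brown fat had 5 lower with pseudocount 1, 0 higher with 50 counts, and 1 to 3 higher with 1 library left out. Against muscle they had 1 higher and 4 lower with 50 counts. In the hypothalamus pull-down they had 1 to 2 lower with 1 library left out. Depth limits the IPs most, where the median number of members with a count was 13, 7, 10 and 29.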
